A study of Mus musculus with 8 samples.

Results

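Genes of the type I interferon signalling chain were followed in mouse skin keratinocytes with a Cre-mediated deletion of Hmgb1, which encodes a DNA-bending nuclear protein that can be released as a danger signal. The 9 genes were chosen by symbol from the 24421 gene symbols counted in each library. They are the receptor chains Ifnar1 and Ifnar2, the kinases Jak1 and Tyk2, the transcription factor subunits Stat2 and Irf9, the interferon regulatory factors Irf1 and Irf7, and the feedback protease Usp18. All 9 passed the filter on low counts, so none was left out of the test. In the knockout (KO), Stat2, Irf9, Irf7 and Usp18 rose, while both receptor chains, both kinases and Irf1 did not pass the test.

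There were 4 KO and 4 WT libraries of total RNA from skin keratinocytes of the strain CBA x C57Bl/6J. The KO libraries have the genotype InvEE K5 Cre+ HMGB1 fl/fl, and the WT libraries have InvEE K5 Cre- HMGB1 fl/fl. Both groups therefore carry the floxed Hmgb1 alleles and the InvEE transgene, in which the involucrin promoter drives an activated form of the kinase MEK1 in differentiating keratinocytes, so WT is not an unmanipulated skin. The K5 promoter is active in basal keratinocytes, and its Cre deletes in them and in the cells that descend from them. K5-Cre was present in KO libraries alone, so effects of Cre and of losing Hmgb1 cannot be told apart. Age and sex are not in the labels. The labels number the replicates without stating whether they came from different mice. The p-values below therefore reflect spread among these libraries, some of which may be technical.

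In the type I interferon pathway, interferon alpha or beta binds the receptor made of IFNAR1 and IFNAR2, whose cytoplasmic tails hold the kinases TYK2 and JAK1. These phosphorylate STAT proteins, and STAT2 joins IRF9 in the complex ISGF3, which binds interferon-stimulated response elements in DNA. IRF7 amplifies interferon production, IRF1 is a related factor best known downstream of interferon gamma, and USP18 removes the ubiquitin-like protein ISG15 from its substrates and also binds IFNAR2 to dampen the receptor. Keratinocytes make and answer interferons at the skin barrier and after wounding.

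Sequence upstream of 4 members is shown, chosen by their results. Stat2, Irf9 and Irf7 rose, while Irf1, of the same family as Irf7 and Irf9, did not pass the test. The bases are those before the annotated gene, from RefSeq GRCm38.p6, 5′ to 3′ on the strand of the gene, and capitals mark matches to either motif searched. One motif was the core of the interferon-stimulated response element (ISRE), GAAANNGAA, and the other the gamma-activated site (GAS) bound by STAT dimers, TTCNNNGAA; both strands were searched, and the motifs did not overlap each other in these windows. The stretches are chr10:128270248-128270497 on the plus strand, chr14:55603735-55603984 on the plus strand, chr7:141266500-141266674 on the minus strand and chr11:53769764-53770013 on the plus strand.
Stat2: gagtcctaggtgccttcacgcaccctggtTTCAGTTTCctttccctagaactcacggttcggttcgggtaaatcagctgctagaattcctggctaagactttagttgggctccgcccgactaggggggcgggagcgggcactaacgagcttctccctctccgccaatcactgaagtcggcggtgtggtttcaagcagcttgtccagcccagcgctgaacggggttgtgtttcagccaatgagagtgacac
Irf9: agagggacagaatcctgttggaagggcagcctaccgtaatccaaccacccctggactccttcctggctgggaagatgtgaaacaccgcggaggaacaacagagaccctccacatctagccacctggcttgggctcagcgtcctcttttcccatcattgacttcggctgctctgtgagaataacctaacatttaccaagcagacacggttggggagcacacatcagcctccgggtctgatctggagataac
Irf7: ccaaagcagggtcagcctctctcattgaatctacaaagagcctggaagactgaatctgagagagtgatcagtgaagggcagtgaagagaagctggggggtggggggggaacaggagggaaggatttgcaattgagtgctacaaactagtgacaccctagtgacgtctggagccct
Irf1: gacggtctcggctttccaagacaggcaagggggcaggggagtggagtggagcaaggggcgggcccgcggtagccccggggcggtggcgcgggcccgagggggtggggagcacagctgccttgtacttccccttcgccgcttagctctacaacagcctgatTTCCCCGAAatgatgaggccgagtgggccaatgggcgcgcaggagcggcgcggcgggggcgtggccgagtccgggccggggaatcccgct

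Windows from 250 bases before to 50 bases after a start were in the table for 8 of the 9 members, Usp18 not among them, in 10 windows. Stat2 was the 1 member whose window held the ISRE core, on the strand opposite to the gene and 221 bases before the start. The Irf1 window held a GAS match 90 bases before the start, and GAS matches were also in the windows of Ifnar1 and Ifnar2. Of all 32851 windows, 8.56% held the ISRE core and 8.30% the GAS motif. The ISRE core was in the windows of 14 of the 22 interferon target genes found in the table. These matches are letters in a window and not measured binding.

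Totals over genes were 30841304 to 32150134 counts in KO libraries and 30506676 to 34229030 in WT libraries. Hmgb1 was at 118 ± 5.87 CPM (counts scaled by library size, with sizes corrected by the TMM method) in KO and 591 ± 21.0 CPM in WT (SD, n = 4 each), 5.01-fold lower in KO (edgeR adjusted p = 3.576e-07). The sources used here do not say which part of Hmgb1 is floxed. Y-linked transcripts were present in KO replicate 1 and in WT replicates 2 and 3, with 6110 to 6743 counts over 4 Y-linked genes, against at most 51 in any other library. Keratinocyte markers were abundant, with 58528 to 64944 CPM summed over 8 genes in KO and 48173 to 58535 CPM in WT, and 2 of the 8, Krt10 (1.77-fold, edgeR adjusted p = 0.01693) and Perp (1.37-fold, 0.03216), were higher in KO. Among markers of other cells, 1 of 4 tested fibroblast genes and 1 of 3 tested melanocyte genes passed, both at low levels. The fibroblast gene Dcn was higher, at 1.92 CPM in KO and 0.663 CPM in WT (edgeR adjusted p = 0.02006). The melanocyte gene Kit was lower, at 0.129 CPM in KO and 0.732 CPM in WT (edgeR adjusted p = 0.008833). The other tested genes of these 2 lists did not pass, and the part of other cells in the results was not tested. The leukocyte genes Ptprc, Laptm5 and Coro1a summed to 1.01 to 3.34 CPM in KO and 1.93 to 4.405 CPM in WT. In bulk libraries, fewer cells of a type and less RNA per cell cannot be told apart.

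The receptor chains did not pass the test. Ifnar1, on chromosome 16 (91485032 to 91510523, mm10), was at 51.3, 48.7, 47.4 and 43.8 CPM in KO replicates 1 to 4, and at 44.8, 51.8, 50.4 and 47.4 CPM in WT replicates 1 to 4. The groups overlapped, and its log2 fold change was -0.02 (SE 0.08, edgeR adjusted p = 0.8868). The 95% interval ran from 0.864-fold to 1.12-fold. Ifnar2, which lies beside it at 91372783 to 91405589, was at 19.8, 19.0, 13.5 and 14.0 CPM in KO replicates 1 to 4 and at 15.9, 14.8, 14.7 and 17.6 CPM in WT replicates 1 to 4. KO replicates 1 and 2 were above every WT library and KO replicates 3 and 4 below, and the log2 fold change was 0.08 (SE 0.15, edgeR adjusted p = 0.7846, 95% interval 0.841-fold to 1.32-fold). The signs of these differences near 0 flipped under some alternatives, Ifnar2 also when libraries were scaled by their totals.

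The kinases did not pass the test either. Jak1, the kinase shared by receptors of all 3 interferon types (chromosome 4, 101151974 to 101265282), was at 487, 458, 314 and 363 CPM in KO replicates 1 to 4 and at 310, 327, 321 and 357 CPM in WT replicates 1 to 4. KO replicates 1, 2 and 4 were above every WT library, but KO replicate 3 was lower than 3 of the WT libraries. The means were 406 ± 80.6 CPM in KO and 329 ± 20.02 CPM in WT (SD, n = 4 each), and the log2 fold change was 0.30 (SE 0.14, edgeR adjusted p = 0.1844, 95% interval 1.003-fold to 1.52-fold before adjustment). Tyk2, the kinase held by IFNAR1 (chromosome 9, 21104068 to 21131393), was at 48.4, 58.8, 57.9 and 61.2 CPM in KO replicates 1 to 4 and at 66.7, 57.4, 57.5 and 60.0 CPM in WT replicates 1 to 4. Its groups overlapped, and its log2 fold change was -0.09 (SE 0.10, edgeR adjusted p = 0.5729, 95% interval 0.811-fold to 1.08-fold).

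The STAT and IRF subunits of ISGF3 rose together. Stat2 (chromosome 10, 128270498 to 128292853) was at 104, 150, 251 and 170 CPM in KO replicates 1 to 4 and at 54.2, 81.6, 38.7 and 64.1 CPM in WT replicates 1 to 4. Every KO library was above every WT library, and KO replicate 1 and WT replicate 2 were the closest pair. The means were 169 ± 61.3 CPM in KO and 59.7 ± 18 CPM in WT (SD, n = 4 each), 2.82-fold higher in KO (log2 1.498, SE 0.30, edgeR adjusted p = 0.02111). Irf9, the DNA-binding subunit (chromosome 14, 55603985 to 55610030), was at 93.4, 128, 169 and 132 CPM in KO replicates 1 to 4 and at 41.7, 72.1, 33.1 and 59.1 CPM in WT replicates 1 to 4. Its groups did not overlap either, and it was 2.54-fold higher in KO (log2 1.34, SE 0.26, edgeR adjusted p = 0.01683). Irf9 overlaps Rnf31 on the same strand in the GENCODE annotation, and Rnf31 was also higher, at 56.1 ± 5.37 CPM in KO and 38.4 ± 4.10 CPM in WT (SD, n = 4 each, edgeR adjusted p = 0.01208), so reads shared between them are uncertain. Stat2 lost its call without KO replicate 2 (edgeR adjusted p = 0.05269) and without WT replicate 1 (0.05210), and Irf9 without KO replicate 2 (0.05194). Over all alternatives the adjusted p ran from 8.419e-07 to 0.07088 for Stat2 and from 1.469e-06 to 0.05194 for Irf9.

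**Figure D1:**
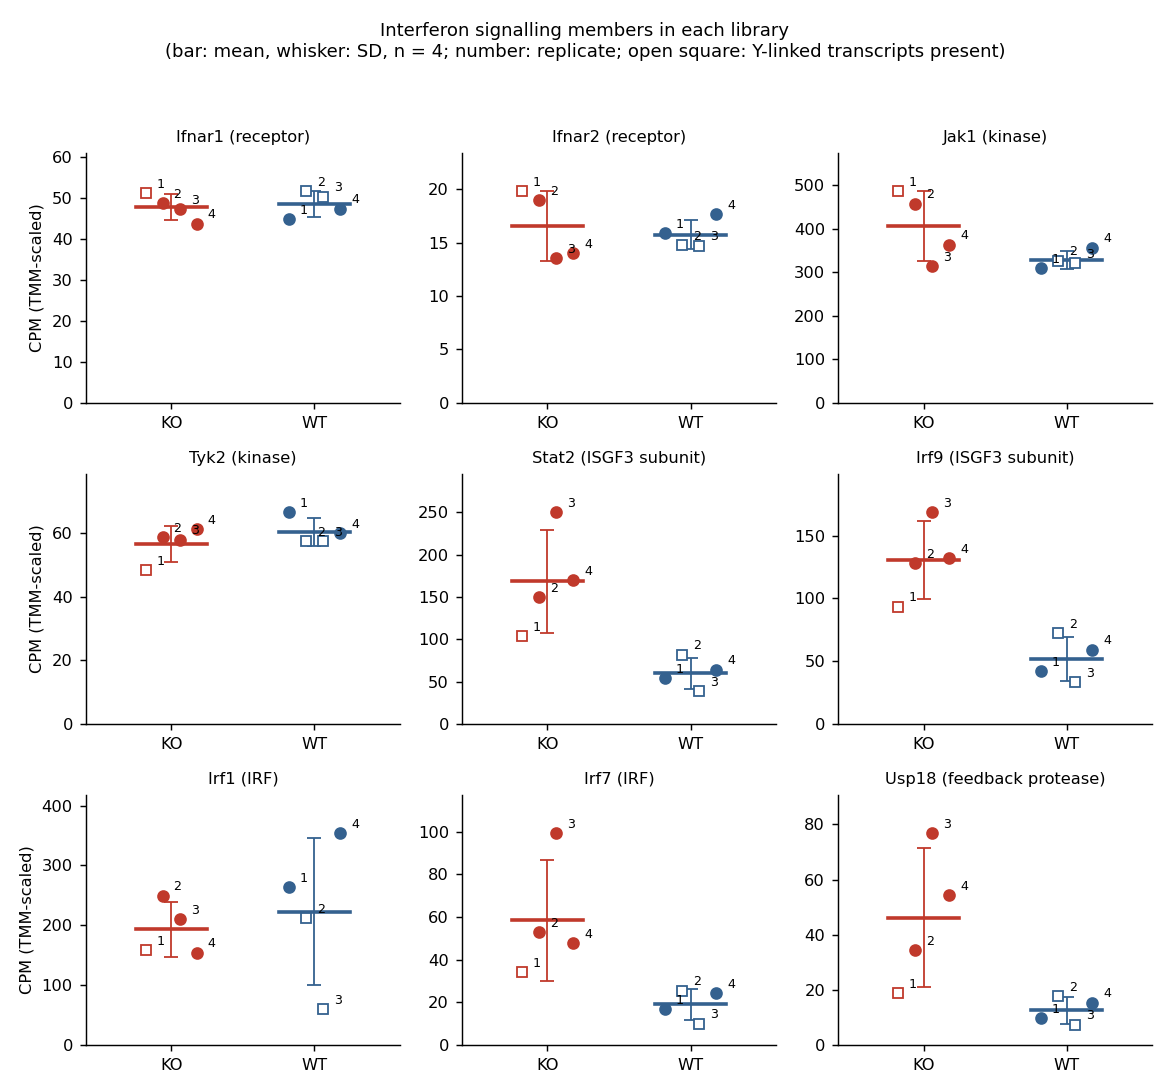
TMM-scaled CPM of the 9 interferon signalling genes on a linear axis from 0, with KO libraries on the left and WT libraries on the right of each panel; bars are means, whiskers the SD of 4 libraries, numbers the replicates, and open squares the libraries with Y-linked transcripts. All KO libraries lie above all WT libraries for Stat2, Irf9, Irf7 and Usp18, and the groups overlap for the other 5 genes.

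Of the 2 interferon regulatory factors outside ISGF3, Irf7 passed the test and Irf1 did not, and the difference between them was not tested. Irf7 (chromosome 7, 141263183 to 141266499) was at 34.0, 52.9, 99.3 and 47.7 CPM in KO replicates 1 to 4 and at 16.7, 25.3, 9.98 and 24.3 CPM in WT replicates 1 to 4. The groups did not overlap, and Irf7 was 3.07-fold higher in KO (log2 1.62, SE 0.39, edgeR adjusted p = 0.04025). Phrf1, which overlaps Irf7 on the opposite strand, was at 89.9 ± 5.57 CPM in KO and 87.4 ± 6.17 CPM in WT (SD, n = 4 each, edgeR adjusted p = 0.7873). Irf1 (chromosome 11, 53770014 to 53778374) was at 158, 250, 210 and 154 CPM in KO replicates 1 to 4 and at 264, 212, 60.1 and 354 CPM in WT replicates 1 to 4. WT libraries spanned a 5.89-fold range that enclosed all 4 KO libraries, with the lowest value in WT replicate 3 and the highest in WT replicate 4. Its log2 fold change was -0.21 (SE 0.46, edgeR adjusted p = 0.8134), and the 95% interval of 0.417-fold to 1.80-fold covers both a fall and a rise.

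Usp18, the negative regulator (chromosome 6, 121245906 to 121270917), had the largest fold change of the 9. It was at 18.7, 34.4, 76.9 and 54.4 CPM in KO replicates 1 to 4 and at 9.69, 17.7, 7.39 and 15.3 CPM in WT replicates 1 to 4. The groups did not overlap, but KO replicate 1 and WT replicate 2 were close. Usp18 was 3.69-fold higher in KO (log2 1.88, SE 0.45, edgeR adjusted p = 0.0414). The calls for Irf7 and Usp18 were close to the threshold. Irf7 kept its call without KO replicate 1 or KO replicate 3 and lost it without KO replicate 2, KO replicate 4 or any single WT library (edgeR adjusted p 0.06028 to 0.09967). Usp18 kept its call without KO replicate 1 and lost it without any other single library (0.05778 to 0.08877). Over all alternatives the adjusted p ran from 0.003270 to 0.1308 for Irf7 and from 0.002298 to 0.1008 for Usp18, while their log2 fold changes stayed at 1.24 to 1.81 and 1.52 to 2.15.

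In all, 4 of the 9 members were called higher and 0 lower by edgeR, where 4.33% of the 13016 tested genes were called higher and 4.54% lower (8.87% in either direction). Scaled by library totals, 370 genes were called higher and 997 lower, against 563 and 591 with TMM, and the median log2 fold change of all genes moved by -0.11. DESeq2 and limma-voom also called 4 higher and 0 lower, and 0 members had an unadjusted p under 0.05 with a lower level in KO. By edgeR, 5 of the 9 members and 3412 of the 13016 tested genes had an unadjusted p under 0.05 in either direction. The groups did not overlap, with KO above WT, for 4 of the 9 members and for 7.95% of tested genes. The median log2 fold change was 0.30 over the members and -0.02 over all tested genes. Without KO replicate 2 the count of members called was 0, although 4 had an unadjusted p under 0.05 by edgeR in that fit. The count was 1 without WT replicate 1, and 2 without KO replicate 4 or without WT replicate 2, 3 or 4. Calls over all genes also fell in these fits. Without KO replicate 2, 200 of 13170 tested genes were called higher, and 247 to 416 in the other fits named, against 563 in the main fit. In the 5 libraries without Y-linked transcripts Stat2 (log2 1.68, edgeR adjusted p = 0.01539) and Irf9 (log2 1.504, 0.006862) were called. Irf7 (log2 1.70, 0.1301) and Usp18 (log2 2.15, 0.08420) were not. Of all 13256 genes tested in those libraries, 141 were called higher and 242 lower.

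**Figure D2:**
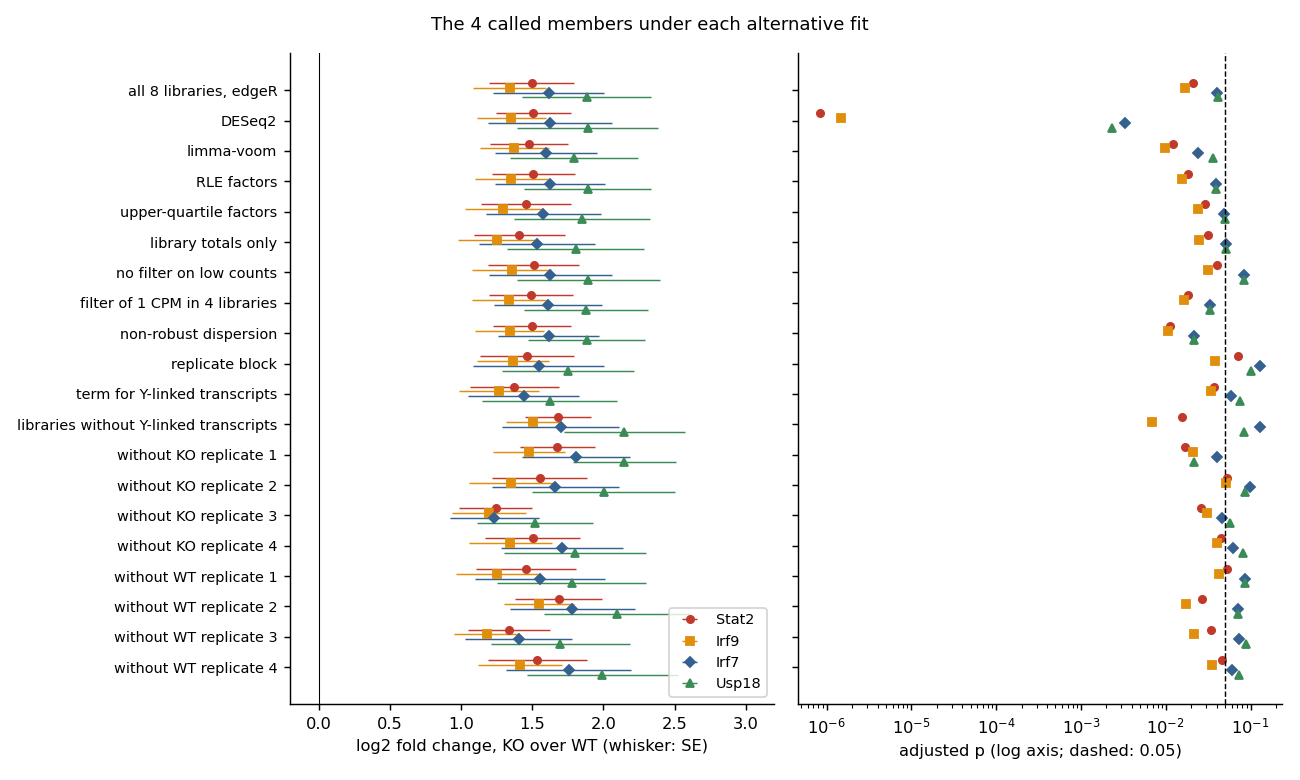
Log2 fold change of KO over WT with its SE (left) and adjusted p on a log axis (right) for Stat2, Irf9, Irf7 and Usp18 under the edgeR fit to all 8 libraries and each alternative. Fold changes stay above 1 on the log2 scale throughout, whereas adjusted p-values for Irf7 and Usp18 lie on both sides of the dashed 0.05 line.

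Per length, the order of the genes differed between genotypes. Levels are CPM per kilobase of exon union in GENCODE M21. For Irf7 that union was 3776 bases, longer than its RefSeq span of 141263183 to 141266499. For Irf9 it was 5386 bases, most of its RefSeq span of 55603985 to 55610030. The levels of Irf7 and Irf9 per kilobase may therefore be too low, and their places against other genes are uncertain. In KO the order was Jak1 (56.1), Irf1 (48.5), Stat2 (28.4), Irf9 (24.2), Usp18 (16.5), Irf7 (15.5), Tyk2 (8.24), Ifnar1 (8.05) and Ifnar2 (4.98 CPM per kilobase). In that order the ranges over libraries did not overlap between Irf7 and Tyk2 or between Ifnar1 and Ifnar2, and all other neighbours overlapped. In WT the order was Irf1 (56.0), Jak1 (45.5), Stat2 (10.1), Irf9 (9.56), Tyk2 (8.80), Ifnar1 (8.18), Irf7 (5.05), Ifnar2 (4.73) and Usp18 (4.49 CPM per kilobase). There the ranges did not overlap between Jak1 and Stat2 or between Ifnar1 and Irf7. Usp18, last of the 9 in WT, had rank 5 in KO.

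Stat2, Irf9, Irf7 and Usp18 were also ordered alike among libraries of one genotype. All 4 were highest in KO replicate 3 and lowest in KO replicate 1 among KO libraries, and followed the same order in WT, highest in replicate 2, then 4, then 1, and lowest in replicate 3. That WT order was seen in 3.14% of tested genes. KO replicate 1 and WT replicates 2 and 3 hold Y-linked transcripts, so the KO library with them was the lowest and the WT libraries with them were the highest and the lowest. Usp18 had the widest spread in KO, 4.12-fold between the highest and lowest library, and Irf9 the narrowest of the 4, 1.81-fold. Beside this, the Langerhans and dendritic cell markers (6 genes) summed to 28.6, 34.7, 62.9 and 22.0 CPM in KO replicates 1 to 4 and to 74.3, 29.5, 50.5 and 22.6 CPM in WT replicates 1 to 4, highest in KO replicate 3 but in WT highest in replicates 1 and 3, and 0 of the 4 tested passed by edgeR. The T cell list, 0 of whose 2 tested genes passed, summed to 240 to 337 CPM in KO libraries and 174 to 244 CPM in WT libraries. Nearly all of that was Thy1, while Cd3d, Cd3e and Cd3g were at most 0.251 CPM in KO libraries and 0.462 CPM in WT libraries. Of the 4 plasmacytoid dendritic cell genes, Siglech had 1 count in KO libraries and 0 in WT libraries. The other genes of that list were tested, and 0 of the 3 passed by edgeR. Mean CPM in KO and WT were 1.04 and 0.487 for Ccr9, 1.03 and 1.39 for Il3ra, and 24.8 and 28.1 for Tcf4. The part of other cells in these values was not tested.

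**Figure D3:**
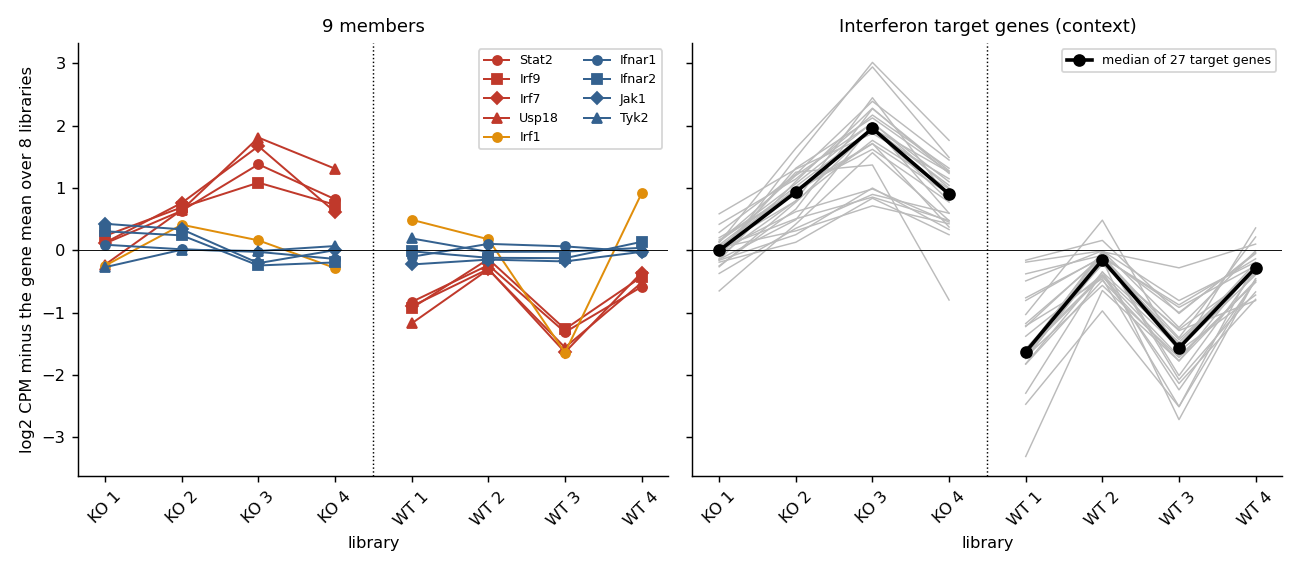
Log2 CPM of each gene minus its mean over the 8 libraries, for the 9 members (left) and 27 interferon target genes (right; grey lines single genes, black their median), with KO libraries left of the dotted line and WT libraries right of it; lines join libraries for legibility and carry no order. Stat2, Irf9, Irf7 and Usp18 largely follow the target genes from library to library, and all are highest in KO replicate 3, where the target median is 1.96. The target median is lowest in WT replicate 1 (-1.63, against -1.565 in WT replicate 3), whereas Stat2, Irf9, Irf7 and Usp18 are lowest in WT replicate 3. The receptor chains and kinases stay near 0.

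The genes most like each member were found by Pearson r of log2 CPM over the 8 libraries, which share the genotype difference, so these values are descriptions. Stat2 was most like Xaf1 (r = 0.997), Oas1b (0.992) and Emc8 (0.986). Irf9 was most like Mx2 (0.997), Rtp4 (0.993) and Samd9l (0.990). Irf7 was most like Trex1, the DNA exonuclease (0.995), Ddx60 (0.988) and Oas1g (0.984), and Usp18 was most like Dtx3l (0.990), Oas1b (0.989) and Parp9 (0.989). After each genotype's mean was removed, r for these pairs was 0.955 to 0.994. Oas1b and Oas1g belong to a family of near-identical copies, so their counts are uncertain. Irf1 was most like Slc24a3 (0.972), Cish, a cytokine-induced feedback gene (0.971), and Bcl2l14 (0.966). Ifnar2 was most like Brd1 (0.998), Ifnar1 like Bnc1 (0.951), Jak1 like Epha4 (0.980) and Tyk2 like Tnfrsf19 (0.964).

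The interferons that start the pathway were near the detection limit. Of 21 interferon symbols counted, 15 had 0 counts in every library, among them 13 of 14 interferon alpha symbols. A count of 0 allows a level of up to 0.0947 to 0.107 CPM in KO libraries and 0.0837 to 0.0958 CPM in WT libraries (3 counts per library, counting error only). Ifna4 had 1 count, in KO replicate 4. All interferon symbols summed to 29, 39, 66 and 30 counts in KO replicates 1 to 4 and to 8, 45, 8 and 46 counts in WT replicates 1 to 4. KO replicate 3 was the highest of all. WT replicates 2 and 4, in which Stat2, Irf9, Irf7 and Usp18 were highest among WT libraries, held 45 and 46 counts, against 8 in each of the others. KO replicates 1, 2 and 4 held fewer counts than WT replicates 2 and 4. Yet Stat2, Irf9, Irf7 and Usp18 were higher in every KO library than in every WT library. A link between these counts and the 4 genes was not tested. Most interferon counts were of Ifnl2 and Ifnl3, type III interferons. Ifnl2 was at 0.588 ± 0.329 CPM in KO and 0.401 ± 0.330 CPM in WT (SD, n = 4 each, log2 fold change 0.56, SE 0.61, edgeR adjusted p = 0.602).

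Of the other pathway genes, 38 of 59 were tested. Of the 38, 5 rose and 2 fell, where 4.33% of all tested genes were called higher and 4.54% lower. The other 31 of the 38 did not pass, and the median over all 38 was 0.17 on the log2 scale. Over all 13016 tested genes, 3412 had an unadjusted p under 0.05 by edgeR. Of the receptor group, 0 of 4 passed by edgeR, and 2 had an unadjusted p under 0.05. Ifngr1, the ligand-binding chain for interferon gamma and the one with the most CPM, was at 222 CPM in KO and 180 CPM in WT (edgeR adjusted p = 0.1474). Jak2, which serves the interferon gamma receptor, rose to 113 ± 30.4 CPM in KO, against 61.6 ± 3.72 CPM in WT (SD, n = 4 each, log2 0.87, SE 0.17, edgeR adjusted p = 0.01445). It was called whichever single library was left out, but not in the 5 libraries without Y-linked transcripts (0.1041). Of 5 other tested STAT genes, edgeR called 0 and 1 had an unadjusted p under 0.05. Stat3, which had the most CPM of them, was at 485 CPM in KO and 408 CPM in WT (log2 0.25, SE 0.14, edgeR adjusted p = 0.3009).

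Irf5, which acts downstream of Toll-like receptors, rose to 32.0 ± 0.554 CPM in KO, against 23.4 ± 3.53 CPM in WT (SD, n = 4 each, log2 0.45, SE 0.11, edgeR adjusted p = 0.03538), a call kept without KO replicate 3 or without WT replicate 2 and lost without any other single library. Its adjusted p ran from 0.003626 to 0.09324 over all alternatives. Irf2, Irf3 and Irf4 did not pass. Of the IRF2 corepressors, Irf2bpl rose (log2 0.53, SE 0.13, edgeR adjusted p = 0.03111) and Irf2bp1 fell (log2 -0.30, SE 0.08, edgeR adjusted p = 0.04742). Leaving out 1 library, Irf2bpl kept its call without KO replicate 1, 3 or 4, and lost it otherwise (0.05402 to 0.07801), and Irf2bp1 lost its call in all 8 fits (0.06229 to 0.1171).

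Among 12 feedback genes, Socs3 fell and Pias1 rose, and 10 did not pass. Socs3, an inhibitor of cytokine receptor JAK kinases that is itself induced by STAT3, was at 311, 316, 309 and 285 CPM in KO replicates 1 to 4 and at 541, 404, 394 and 538 CPM in WT replicates 1 to 4. All KO libraries were lower than all WT libraries, and the log2 fold change was -0.62 (SE 0.12, edgeR adjusted p = 0.01445), and every alternative kept the call. Pias1, a SUMO ligase that inhibits STATs, was at 42.0 ± 3.53 CPM in KO and 30.4 ± 1.96 CPM in WT (SD, n = 4 each, log2 0.47, SE 0.09, edgeR adjusted p = 0.01441). It lost its call without KO replicate 2 (0.05026) and when the libraries with Y-linked transcripts were left out (0.1213). Of the 5 genes of the ISG15 conjugation group, the modifier that Usp18 removes and its ligation enzymes, edgeR called 0. An unadjusted p under 0.05 was seen for 4 of the 5 and for 3412 of all 13016 tested genes. The median log2 fold change of the 5 was 1.22. Trim25, which had the most CPM of them, was at 93.0 CPM in KO and 75.8 CPM in WT (edgeR adjusted p = 0.1038). Isg15 itself, given after its values were seen, was at 17.1, 39.1, 96.0 and 41.0 CPM in KO replicates 1 to 4 and at 4.22, 17.99, 7.79 and 11.8 CPM in WT replicates 1 to 4, so that KO replicate 1 fell within the WT range (log2 2.21, SE 0.59, edgeR adjusted p = 0.05818). DESeq2 called 10 other pathway genes higher and 2 lower. Over all 13016 tested genes DESeq2 called 1093 higher and 917 lower, against 563 and 591 by edgeR.

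**Figure D4:**
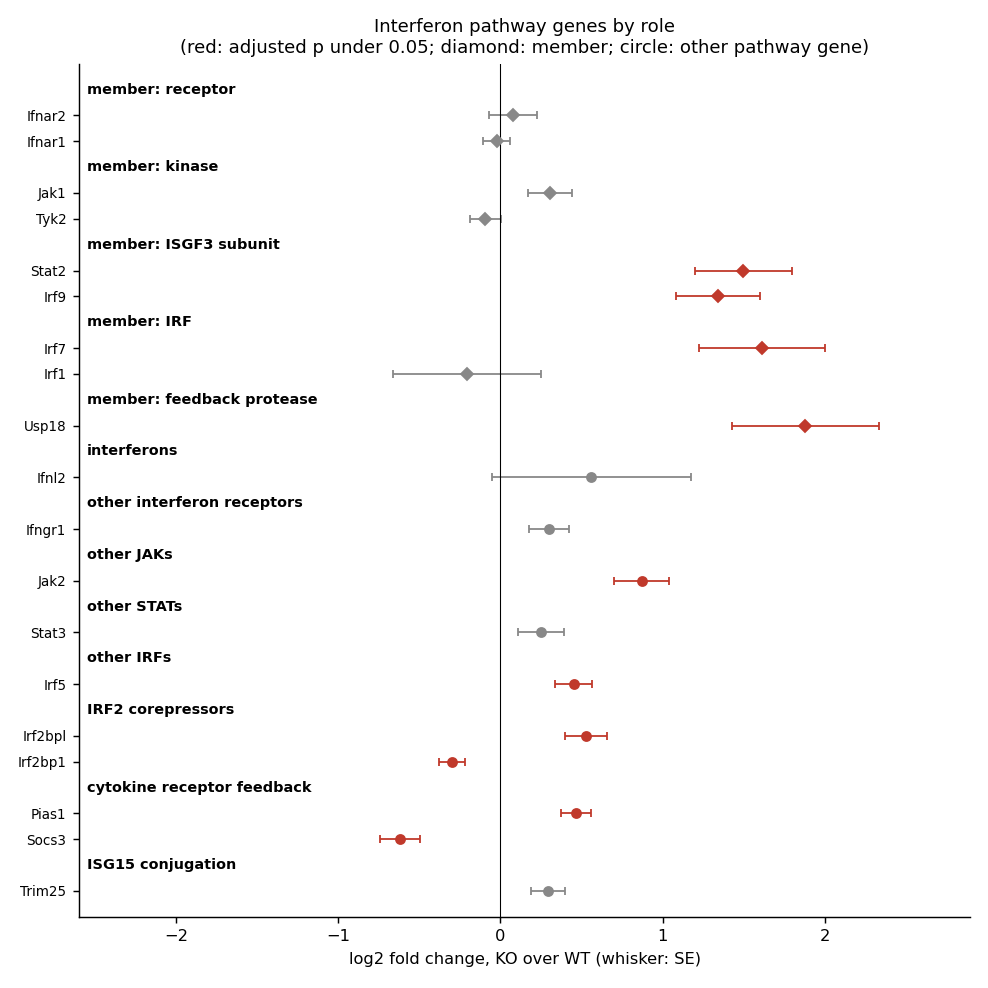
Log2 fold change of KO over WT with its SE for the 9 members (diamonds) and the 10 named other pathway genes (circles), grouped by role, with red for an adjusted p under 0.05. Stat2, Irf9, Irf7 and Usp18 lie between 1.34 and 1.88, above the receptor chains and kinases at -0.09 to 0.30.

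For comparison, 27 interferon target genes were tested from a list of antiviral and antigen-processing genes. Of the 27, edgeR called 16 higher and 0 lower, where 4.33% of all tested genes were called higher and 4.54% lower. Over all 13016 tested genes, 3412 had an unadjusted p under 0.05 by edgeR. The median log2 fold change of the 27 was 1.88, and 23 of the 27 had an unadjusted p under 0.05. DESeq2 called 23 of them higher, and 1093 of all 13016 tested genes. The list was drawn up with earlier results of these data known, so its direction is not independent of them. All 27 were highest in KO replicate 3 among KO libraries, and 26 were lowest in KO replicate 1. Leaving out 1 library gave 1 to 19 target genes called, with 1 without KO replicate 2, 2 without WT replicate 3 and 3 without WT replicate 1. It gave 4 without KO replicate 4, 7 without KO replicate 3 or without WT replicate 2 or 4, and 19 without KO replicate 1. Over all tested genes these fits called from 200 higher (without KO replicate 2) to 678 higher (without KO replicate 3). Without KO replicate 1 they called 352 higher, and the main test called 563.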

How the data were processed

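RNA sequencing was analysed from 4 KO and 4 WT libraries of mouse keratinocytes. The authors deposited unnormalized whole-number counts, 1 row a gene symbol. The submitters' processing notes name mm10 as the build and, as tools without roles, SAMtools 0.1.18, TopHat2 2.1.0, Trimmomatic 0.35 and FastQC 0.11.4. How reads were assigned to genes, by which tool, annotation and strand setting, is not given in the sources used here. Reads of overlapping genes therefore cannot be told apart. Lines naming no gene were left out, ambiguous reads at 0.918 to 1.11% and reads outside genes at 15.7 to 21.7% of a library.

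Genes passing filterByExpr by group (13016) were scaled by TMM and tested with the quasi-likelihood test of edgeR 4.0.16 in R 4.3.3, fitted to genotype alone with robust dispersion. P-values were adjusted by Benjamini-Hochberg over all tested genes, with a threshold of 0.05. The SE is the log2 fold change divided by the root of the F statistic. Log2 CPM used a prior count of 2. No library pair within a group agreed within sampling noise (chi-square per degree of freedom at least 31.6). The steps were tested on simulated counts.

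Alternatives were DESeq2 1.42.0, limma-voom (limma 3.58.1), a block for replicate number, dispersion that was not robust, other scalings and filters, a term for Y-linked transcripts, the libraries without them, and each library left out. All 9 members are described. Of other pathway genes, those past the threshold were named, or the most abundant of a role group where none passed, and the genes with the highest r to each member. Gene coordinates are from RefSeq GRCm38.p6, the assembly of mm10. A pathway gene past the threshold is counted but not reported here by name. The members and lists were chosen with earlier results of these data known.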

Additional observations from a re-analysis of the deposited data

How the results depend on the processing

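Stat2, Irf9, Irf7 and Usp18 were higher in KO under all 19 alternatives. Members called higher, 4 in the main test, were 2 with library totals only, 2 with no filter on low counts, 2 with a term for Y-linked transcripts, 2 in the libraries without them and 0 to 4 leaving out 1 library; members called lower were 0 throughout. Other pathway genes called higher, 5 in the main test, were 10 with DESeq2, 1 in the libraries without Y-linked transcripts and 2 to 7 leaving out 1 library. Those called lower, 2 in the main test, were 1 with RLE factors, 1 with no filter, 1 in the libraries without Y-linked transcripts and 1 in each fit without 1 library. Interferon target genes called higher, 16 in the main test, were 10 with library totals only, 5 with no filter, 4 with the Y-linked term, 7 in the libraries without Y-linked transcripts and 1 to 19 leaving out 1 library. Genes called in all, 1154 in the main test, were 2010 with DESeq2, 383 in the libraries without Y-linked transcripts and 462 to 1247 leaving out 1 library. Fits without a library or without Y-linked libraries have fewer samples; the cause of the other changes was not tested. With the replicate number as a block, 723 genes, 1 member, 4 other pathway genes higher and 1 lower, and 9 target genes were called. Same-numbered libraries had deviations correlated at -0.228 to -0.0528, and 0 of 4 pairs correlated best with their own number. With so few libraries, these correlations cannot decide whether the libraries were paired by number, and the labels do not say. Replicate numbers follow the sample titles, and the deposited file of KO replicate 4 carries another number in its name, so its place in the block is uncertain.

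Signs near 0 reversed for Ifnar1 (0.0124 with the Y-linked term, 0.0166 without Y-linked libraries and -0.0604 to 0.0250 leaving out 1 library). They also reversed for Ifnar2 (-0.0406 with library totals only, -0.111 without Y-linked libraries and -0.0149 to 0.162 leaving out 1 library). Irf1 reversed too (0.0274 with limma-voom and -0.520 to 0.111 leaving out 1 library). Its range was wide, and it was at -0.595 (SE 0.212, edgeR adjusted p = 0.2021) without Y-linked libraries, WT replicate 3 among them. The lowest count of a member in any library was 240, and the interferons summed to 8 to 66 counts a library; the effect of depth on the calls was not tested.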

Other observations

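Some genes of the pathway followed another order among the KO libraries. Jak1, Ifnar2, Jak2, Stat3, Irf2bpl and Pias1 were highest in KO replicate 1, then 2, then 4, and lowest in KO replicate 3, the reverse of the order of Stat2, Irf9 and Usp18. Among members 2 of 9 had that order, among other pathway genes 9 of 38, and among target genes 0 of 27, where 10.1% of all tested genes had it. The order from KO replicate 3 to 4, 2 and 1 was seen in 3 of 9 members, 8 of 38 other pathway genes, 15 of 27 target genes and 10.7% of all tested genes. Among KO libraries the TMM scaling factors were lowest in replicate 1 and highest in replicate 3, at 0.906, 0.9504, 1.0003 and 0.9987 in KO replicates 1 to 4. They were 1.047, 1.026, 1.059 and 1.022 in WT replicates 1 to 4, all above the KO libraries, and their part in these orders was not tested.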
